A study of Mus musculus with 19 samples.

Results

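ABC transporters use ATP to move drugs, conjugates, phospholipid and sterols out of cells, and 10 of them that act in liver were examined here, chosen by gene symbol as *Abcc2*, *Abcb1a*, *Abcb4*, *Abcg2*, *Abcg5*, *Abcg8*, *Abcc3*, *Abcc4*, *Abcc6* and *Abca1*. All 10 were measured, of 19505 genes in all. The liver RNA came from male C57BL/6N mice, 9 of them controls (*Mmut*-ki/wt) and 10 of them mutants (*Mmut*-ko/ki), labelled as 20 weeks old, untreated, fed *ad libitum* on a high-protein diet, with 1 Mouse Clariom S array per animal. The controls have a wild-type allele of *Mmut*, the gene of methylmalonyl-CoA mutase, and the mutants a knockout allele, while both carry a knock-in allele (MMUT-p.Met700Lys) on the other chromosome. The controls are therefore not wild type, and the alleles are present in all tissues of the mouse.

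A hepatocyte faces blood on its basolateral side and bile at the canaliculus, and exporters on each side decide where a solute goes. On the canalicular side, *Abcc2* exports conjugates such as bilirubin glucuronide, *Abcb1a* (P-glycoprotein) and *Abcg2* export drugs and other xenobiotics, *Abcb4* moves phosphatidylcholine into bile and *Abcg5* and *Abcg8* form a heterodimer that secretes cholesterol and plant sterols. On the basolateral side, *Abcc3* and *Abcc4* return conjugates and bile acids to blood, *Abcc6* mediates release of ATP and *Abca1* loads cholesterol and phospholipid onto apolipoprotein A-I to form high-density lipoprotein.

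Values are log2 signals as the authors deposited them, so a difference of 1 is a 2-fold difference, and the signals of different genes are not comparable with each other. Rose, fell and called mean an adjusted p under 0.05 in limma over all 19505 genes. At that threshold 4.73% of all genes rose, 5.33% fell and 10.1% changed in either direction. The arrays had medians from 5.14 to 5.25, and all 10 exporters were detected above background on all 19 arrays. *Mmut* was lower in all 10 mutants than in every control (log2 change -1.66, SE 0.12, limma adjusted p = 5.28e-10). The 9 measured hepatocyte markers were detected on all arrays but several, such as *Alb*, *Ttr* and *Apoa1*, lay at the upper end of the scale, where no change can be read.

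Among the 10 exporters there were 3 that rose, 3 that fell and 4 without a call, with a median log2 change of 0.07 beside 0.00 over all genes. *Abcc3*, *Abcb1a* and *Abcb4*, exporters of conjugates, drugs and phosphatidylcholine, rose in mutant liver. *Abcg8*, *Abcg2* and *Abca1*, of which *Abcg8* and *Abca1* move sterols, fell. *Abcc2*, *Abcc4*, *Abcc6* and *Abcg5* did not pass. Both faces of the hepatocyte held calls in both directions, with 2 rises and 2 falls among 6 canalicular genes and 1 rise and 1 fall among 4 basolateral genes.

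**Figure D1:**
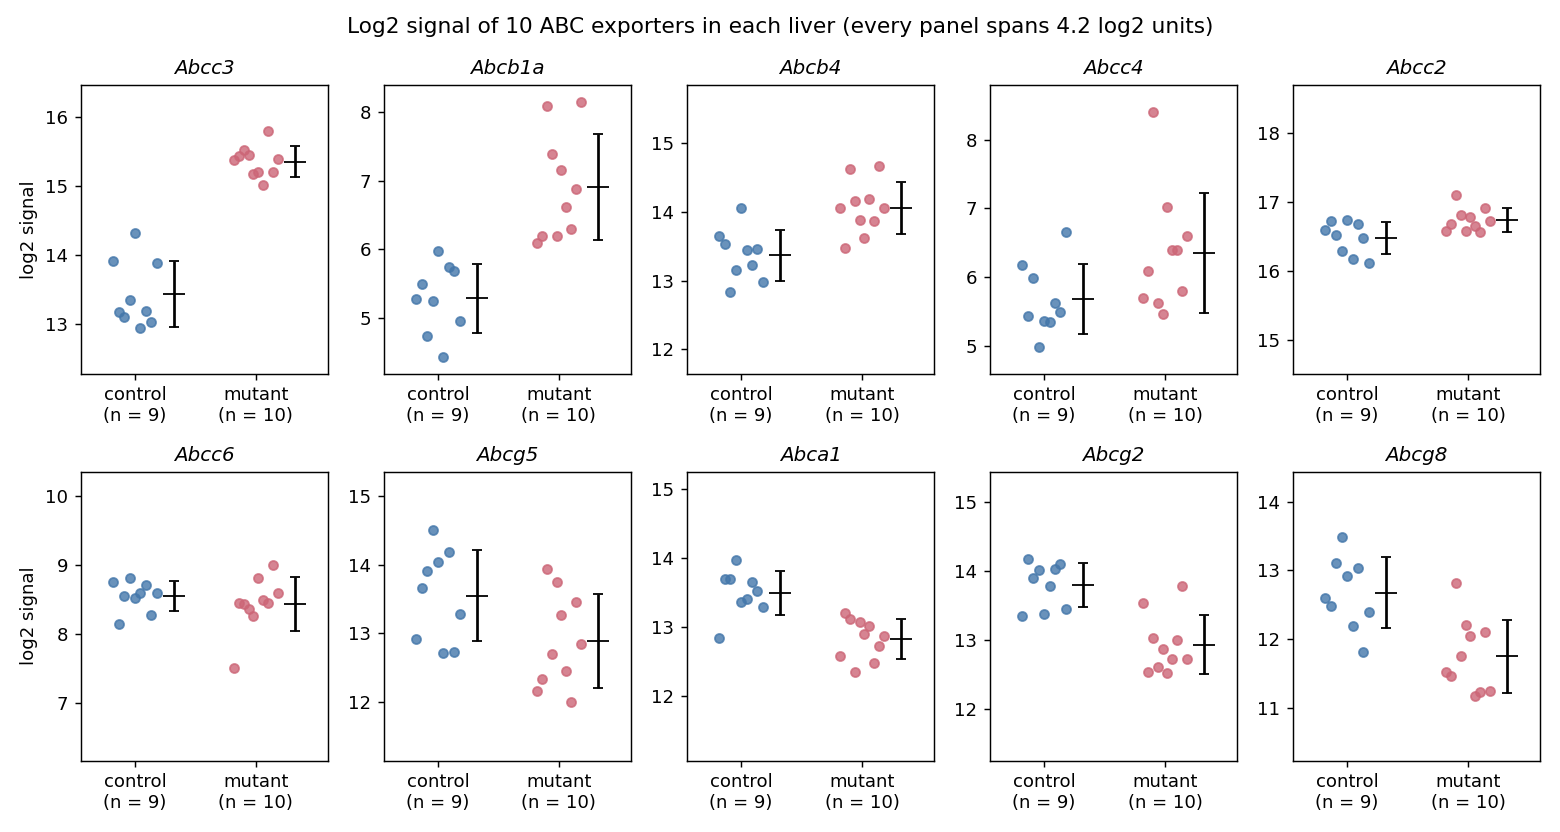
Log2 signal (y axis) of each exporter in each liver, 1 point per mouse, for 9 control (blue) and 10 mutant (red) livers, with the mean and SD in black. Control and mutant points do not overlap for *Abcc3* and *Abcb1a* and overlap to some degree for the other 8 genes.

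*Abcc3* (Mrp3), which carries glucuronides from hepatocytes to blood, had the largest rise of the 10 genes. In the controls its log2 signal was 12.94 at the lowest, 13.18 at the median and 14.32 at the highest, and in the mutants it was 15.01, 15.38 and 15.80. The lowest mutant lay above the highest control, and the mutants were spread less than the controls (SD 0.22, n = 10, against 0.48, n = 9). Mutant liver differed by a log2 change of 1.93 (SE 0.16, limma adjusted p = 5.49e-09), a 3.80-fold level. Exact permutation of the genotypes, which has 92378 arrangements and was two-sided throughout, gave p = 1.08e-05, the smallest that it can give. Over all genes, 0.933% had every mutant above every control.

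*Abcc2* (Mrp2), the canalicular carrier of the same kind of substrate, did not pass the test. Its log2 signal ran from 16.11 through a median of 16.52 to 16.74 in the controls, and from 16.56 through 16.71 to 17.10 in the mutants. All 10 mutants lay above the control median, and 4 above every control. Mutants exceeded controls by a log2 change of 0.26 (95% interval 0.03 to 0.49, limma adjusted p = 0.152), with an unadjusted exact permutation p = 0.0118. The change of *Abcc3* exceeded that of *Abcc2* by 1.66 on the log2 scale (SE 0.19, exact permutation p = 1.08e-05, adjusted p = 4.33e-05 over 4 such comparisons, whose pairs were chosen after the values were seen).

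*Abcc4* (Mrp4), a basolateral carrier of conjugates and bile acids, was uneven among the mutants. Its log2 signal was 4.99 at the lowest, 5.50 at the median and 6.66 at the highest in the controls, and 5.47, 6.24 and 8.40 in the mutants. Mutant replicate 3, at 8.40, stood apart from the next mutant at 7.02, and the other 8 lay within the range of the controls. The estimated log2 change was 0.67 (95% interval 0.09 to 1.26, limma adjusted p = 0.150 and exact permutation p = 0.0474, not adjusted), and 0.45 without mutant replicate 3. *Abcc3* changed by 1.25 more than *Abcc4* (SE 0.33, exact permutation p = 0.00289, adjusted p = 0.00385 over the same 4 comparisons). *Abcc4* was dim, with a control mean of 5.68 beside array medians of 5.14 to 5.25. Its change can therefore be understated, and this difference overstated.

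*Abcc6*, the carrier whose loss causes ectopic mineralization, had signals that overlapped between the groups. The controls ran from 8.15 through a median of 8.59 to 8.82, and the mutants from 7.51 through 8.45 to 9.01, so that all 9 controls lay within the range of the mutants. Genotypes differed by a log2 change of -0.12 (95% interval -0.42 to 0.18, limma adjusted p = 0.715 and exact permutation p = 0.484). It was -0.01 without mutant replicate 1, which had the lowest signal.

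*Abcb1a*, one of the mouse genes of P-glycoprotein, rose in mutant liver. Its log2 signal was 4.44 at the lowest, 5.28 at the median and 5.98 at the highest in the controls, and 6.09, 6.75 and 8.14 in the mutants. The groups do not overlap, although the lowest mutant and the highest control were close, and mutant replicates 3 and 10 were the highest. This was a log2 change of 1.62 (SE 0.26, limma adjusted p = 1.22e-04 and exact permutation p = 2.17e-05), a 3.07-fold level. In the controls *Abcb1a* was dim, with a mean of 5.29 beside array medians of 5.14 to 5.25. The size of its rise can therefore be understated. *Abcb1b*, the close paralog of *Abcb1a*, also rose, from 3.72 ± 0.25 (SD, n = 9) to 4.19 ± 0.37 (SD, n = 10), near the lower end of the scale (log2 change 0.47, SE 0.14, limma adjusted p = 0.0347). *Abcb1b* was detected on 8 of 9 control arrays, and so near background its change can be understated. The remaining one of the 4 comparisons, of *Abcb1a* with *Abcb1b*, therefore does not show which of them changed more and is not read here. Probes of these paralogs may share signal, and the probe sequences were not analysed here.

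P-glycoprotein is also found in endothelium, and *Abca1* in macrophages, so markers of both were read beside these genes. Of 10 sinusoidal endothelial markers, 2 rose (*Clec4g*, with a log2 change of 0.67, and *Ehd3*, with 0.41) and 0 fell. The log2 of their summed signal was 13.76 to 14.29 in the controls and 14.05 to 14.52 in the mutants. Of 11 Kupffer cell and macrophage markers, 4 rose (*Vsig4* by 0.87, *Clec4f* by 0.72, *Cd5l* by 0.67 and *Adgre1* by 0.55 on the log2 scale) and 0 fell, with summed levels of 12.54 to 13.35 and 12.80 to 14.55. Their part in the changes of *Abcb1a* and *Abca1* was not tested. In whole liver, a change in the number of cells of a type and a change in RNA per cell cannot be told apart. The cholangiocyte marker *Krt19* was detected on 0 of 19 arrays, and of the 7 measured markers of that type *Sox9* fell (log2 change -0.77, limma adjusted p = 0.00790) and 0 rose.

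The window around the start site of *Abcb1a* is shown because this gene was higher in all 10 mutants than in every control and the window holds a match to the core of an antioxidant response element. This element, TGACNNNGC on either strand, is the kind bound by NRF2, a regulator of detoxification genes. The window is chr5:8566841-8567140 on the plus strand of GRCm38.p6, from RefSeq, with 250 bases before the start and 50 after it, and capitals mark the match.
*Abcb1a*: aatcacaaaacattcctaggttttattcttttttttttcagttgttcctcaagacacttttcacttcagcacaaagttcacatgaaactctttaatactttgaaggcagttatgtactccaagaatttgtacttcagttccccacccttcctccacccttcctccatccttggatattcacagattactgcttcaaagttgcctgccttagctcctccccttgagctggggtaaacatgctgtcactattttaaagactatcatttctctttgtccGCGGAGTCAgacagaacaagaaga
The match begins 26 bases after the start. RefSeq windows were found for 8 of the 10 exporters (12 windows, all but *Abcc3* and *Abcc6*), and the same letters occurred in those of *Abcb1a*, *Abcc2* and *Abcc4*. They occur in 12.4% of 32851 windows of all genes and in 4 of the 12 windows of the exporters. This is a description and does not show a bound site.

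*Abcb4* (Mdr2), which flips phosphatidylcholine into bile, rose in mutant liver with some overlap between the groups. Its log2 signal was 12.83, 13.45 and 14.06 at the lowest, median and highest in the controls, and 13.48, 14.06 and 14.66 in the mutants. All 10 mutants lay above the control median and 4 above every control. Its log2 change came to 0.69 (SE 0.16, limma adjusted p = 0.00647 and exact permutation p = 0.00126), a 1.61-fold level. *Abcb11*, the bile salt export pump at the same membrane, had a log2 change of 0.01 (95% interval -0.23 to 0.24, limma adjusted p = 0.978). Other genes of phospholipid at the canaliculus changed singly: *Pctp*, the phosphatidylcholine transfer protein, rose by 0.69 (limma adjusted p = 0.00169), *Atp8b1*, the flippase that opposes *Abcb4*, fell by 0.60 (adjusted p = 0.00855), and the other 6 of 8 measured genes did not pass.

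*Abcg2*, the breast cancer resistance protein, which exports drugs, urate and porphyrins, fell in mutant liver. The controls had log2 signals from 13.34 through a median of 13.90 to 14.17, and the mutants from 12.52 through 12.80 to 13.78. All 10 mutants lay below the control median and 8 below every control, with mutant replicates 1 and 9 inside the control range. The groups differed by a log2 change of -0.87 (SE 0.16, limma adjusted p = 7.35e-04 and exact permutation p = 4.55e-04), so that the control level was 1.82-fold that of the mutants. Thus *Abcg2* and *Abcb1a*, drug exporters of the same membrane, changed in opposite directions.

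*Abcg8*, which pairs with *Abcg5* in the sterol exporter, fell in mutant liver, and its partner *Abcg5* did not pass the test. *Abcg8* had log2 signals of 11.82, 12.60 and 13.49 at the lowest, median and highest in the controls, and of 11.18, 11.63 and 12.82 in the mutants, with 6 mutants below every control. It differed by a log2 change of -0.92 (SE 0.21, limma adjusted p = 0.00536 and exact permutation p = 0.00207), a 1.89-fold higher level in the controls. *Abcg5* ran from 12.71 through 13.66 to 14.50 in the controls and from 12.00 through 12.78 to 13.93 in the mutants, with 5 mutants below every control. The difference for *Abcg5* was a log2 change of -0.66 (95% interval -1.21 to -0.11, limma adjusted p = 0.131 and exact permutation p = 0.0499, not adjusted). The changes of the partners differed by 0.26 (SE 0.14, exact permutation p = 0.0831, also 0.0831 after adjustment over the 4 comparisons), so the call on *Abcg8* alone does not show that *Abcg8* changed more than *Abcg5*.

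*Abcg5* and *Abcg8* also varied together from mouse to mouse. After removal of the genotype means, the correlation of their log2 signals over 19 arrays was r = 0.89 (Spearman's rho = 0.87), and r = 0.85 without the 2 arrays farthest from the median of *Abcg5*. It was r = 0.91 among the 9 controls and r = 0.88 among the 10 mutants. Among the 10848 other genes detected on all arrays, none followed *Abcg8* more closely than *Abcg5* did, and the next were *Rap1a* (r = 0.81) and *Tango2* (r = 0.79). Mutant replicate 3 had the highest signal of both genes among the mutants.

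**Figure D2:**
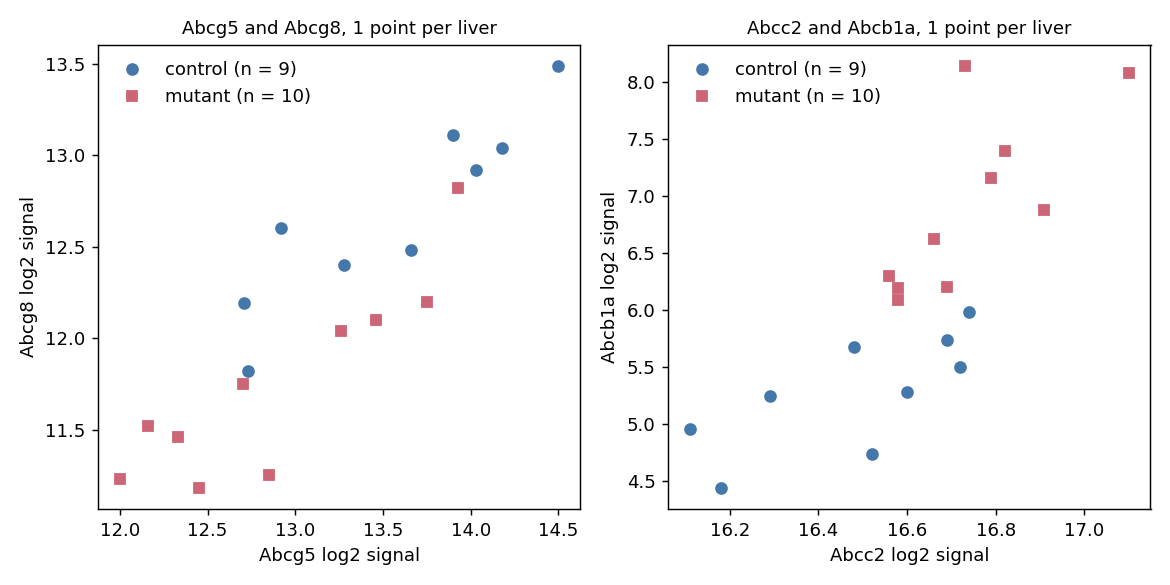
Log2 signal of *Abcg8* against *Abcg5* (left) and of *Abcb1a* against *Abcc2* (right), 1 point per liver, for 9 control (circles) and 10 mutant (squares) mice. Within each genotype the points of *Abcg5* and *Abcg8* lie along a line (r = 0.91 in controls, 0.88 in mutants), and those of *Abcc2* and *Abcb1a* do so more loosely (0.72 and 0.74).

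The start sites of *Abcg5* and *Abcg8* lie back to back, and the sequence between them is shown because both genes are read from it in opposite directions. The window is that of *Abcg8*, chr17:84682871-84683170 on the plus strand of GRCm38.p6, from RefSeq, and capitals mark the letters AGATAA on either strand, a form of the GATA factor motif.
*Abcg8*: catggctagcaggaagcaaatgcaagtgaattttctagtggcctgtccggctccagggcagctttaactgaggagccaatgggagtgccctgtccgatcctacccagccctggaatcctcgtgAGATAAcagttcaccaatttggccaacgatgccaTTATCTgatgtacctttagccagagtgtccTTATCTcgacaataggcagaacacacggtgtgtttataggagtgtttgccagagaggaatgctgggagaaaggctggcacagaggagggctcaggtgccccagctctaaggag
The start sites have 109 bases between them, and the windows of the 2 genes share 209 bases. The motif occurs 3 times in the shared stretch, 2 of them between the start sites, and in none of the windows of the other 6 exporters that have one. It occurs in 11.2% of all windows. GATA factors are known to act on this region in human cells, but no binding was measured here.

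*Abca1*, which starts the formation of high-density lipoprotein, fell in mutant liver. Its log2 signal was 12.83 at the lowest, 13.52 at the median and 13.97 at the highest in the controls, and 12.34, 12.88 and 13.20 in the mutants. All 10 mutants lay below the control median, and the only control within the mutant range was control replicate 1, at 12.83. That gave a log2 change of -0.67 (SE 0.14, limma adjusted p = 0.00213 and exact permutation p = 3.25e-04), a 1.59-fold higher level in the controls. *Apoa1* and *Apoe*, which receive the lipid, had mean log2 signals of 19.91 in both groups, at the upper end of the scale, where no change can be read. Of 8 measured genes of high-density lipoprotein beside it, *Pltp*, which transfers phospholipid between lipoproteins (log2 change 2.01, limma adjusted p = 1.60e-04), and *Lipg*, an endothelial lipase (1.19, adjusted p = 2.06e-04), rose, and 0 fell.

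The window around the start site of *Abca1* is shown because it is the third sterol exporter, with *Abcg5* and *Abcg8*, and its window holds an E box, which theirs do not. It spans chr4:53159846-53160145 on the minus strand of GRCm38.p6, from RefSeq, written in the direction of the gene, and capitals mark an E box (CACGTG) and a TATA box (TATAAA).
*Abca1*: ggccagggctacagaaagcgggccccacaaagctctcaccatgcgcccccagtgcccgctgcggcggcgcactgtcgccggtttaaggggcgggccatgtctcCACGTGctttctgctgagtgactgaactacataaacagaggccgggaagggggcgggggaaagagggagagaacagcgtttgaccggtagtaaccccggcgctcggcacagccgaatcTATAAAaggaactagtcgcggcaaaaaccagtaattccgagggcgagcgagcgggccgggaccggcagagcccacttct
The E box begins 147 bases and the TATA box 29 bases before the start. An E box occurs in 7.15% and a TATA box in 13.6% of all windows, in either direction. The E box letters were also found in a window of *Abcc4*, and the TATA letters in those of *Abcg2*, *Abcg5* and *Abcg8*. The core letters bound by many nuclear receptors, AGGTCA, were also searched on both strands and occur in 16.3% of windows. They were found in those of *Abcg2* and *Abcc2* and in none of these 3 sterol exporters. Only exact letters were searched, so sites that differ from them are missed. The lack of a match therefore does not show the lack of a nuclear receptor site. No match of 1 motif overlapped a match of another in the windows of the exporters.

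The 10 exporters did not vary as 1 group. Of their 45 pairs, 4 had a Pearson's r of 0.5 or more over the 19 arrays after removal of the genotype means, 0 had one of -0.5 or less, and the median was 0.16. Beside *Abcg5* and *Abcg8*, the closest pair was *Abcc2* and *Abcb1a* (r = 0.68, rho = 0.72, and 0.63 without the 2 arrays farthest from the median of *Abcc2*), with r = 0.72 in the controls and 0.74 in the mutants. *Abcc2* and *Abcb4* followed (r = 0.57, rho = 0.58), and then *Abcg5* and *Abca1* (r = 0.53, rho = 0.56), but these fell to 0.43 and 0.39 without the 2 arrays farthest from the median of the first gene. The lowest r were those of *Abcc3* with *Abca1* (r = -0.48, rho = -0.40, and -0.37 without the 2 farthest arrays) and of *Abcg2* with *Abcc3* (r = -0.45, rho = -0.53, and -0.55 without them). The latter pair had r = -0.85 (rho = -0.60) in the 9 controls and -0.00 (rho = 0.03) in the 10 mutants, a difference that was not tested. Control replicates 1, 5 and 9 had the highest *Abcc3* and the lowest *Abcg2* signals of the controls, so that r rests largely on them. *Abcc3* was also spread less in the mutants (SD 0.22 against 0.48), which can lower r there. These correlations are descriptions, since all pairs share the same 19 arrays and their normalization.

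The genes most like each called exporter across mice were mixed. For *Abcc3* they were *Gm609* (r = 0.80), *Nr1i3* (0.78), the gene of the xenobiotic receptor CAR, and *Acot12* (0.77), an acetyl-CoA thioesterase. For *Abcb1a* they were *Dop1b* (0.83), *H2az1* (0.79) and *Ist1* (0.77), and for *Abcb4* *Tlcd4* (0.85), *Smpd5* (0.78) and *Slc35a3* (0.75). For *Abcg2* they were *Vil1* (0.85), *Ifi27* (0.81) and *Pepd* (0.79), and for *Abca1* *Farp1* (0.85), *Gorasp2* (0.85) and *Fastk* (0.84). Each r is over 19 arrays with the genotype means removed and is the highest among 10848 genes, so that high values are common to all lists of this kind. Of these genes, *Nr1i3*, *Acot12*, *Dop1b*, *Tlcd4* and *Ifi27* rose in mutant liver, *Fastk* fell and the others did not pass the test.

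Among the other 38 measured genes of the ABC superfamily, 3 rose, 1 fell and 34 did not pass, with a median log2 change of 0.02. *Abcd2*, a peroxisomal transporter of fatty acyl-CoA and no exporter, rose most. It had log2 signals of 6.16, 7.45 and 9.55 at the lowest, median and highest in the controls and of 10.58, 11.70 and 12.16 in the mutants, without overlap (log2 change 3.79, SE 0.34, limma adjusted p = 1.57e-08), a 13.8-fold level. *Abcc5*, a carrier of cyclic nucleotides and related anions, rose by 0.67 (SE 0.14, limma adjusted p = 0.00140), and 8 of 10 mutants exceeded the highest control. *Abca2*, a lipid transporter of endosomes and lysosomes, fell by 0.62 (SE 0.13, adjusted p = 0.00280), and the fourth was *Abcb1b*. The 34 that did not pass had log2 changes from -0.38 to 0.29. The share called was 6 of 10 among the exporters and 4 of 38 among the rest of the superfamily, beside 10.1% of all genes. These groups are not alike in detection, since all 10 exporters, 24 of the other 38 and 10849 of all 19505 genes were detected on all arrays. In a fit limited to genes detected on all arrays of a group, 2227 of 11884 were called. The exporters were also chosen with earlier results of these data known, so the shares are a description.

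**Figure D3:**
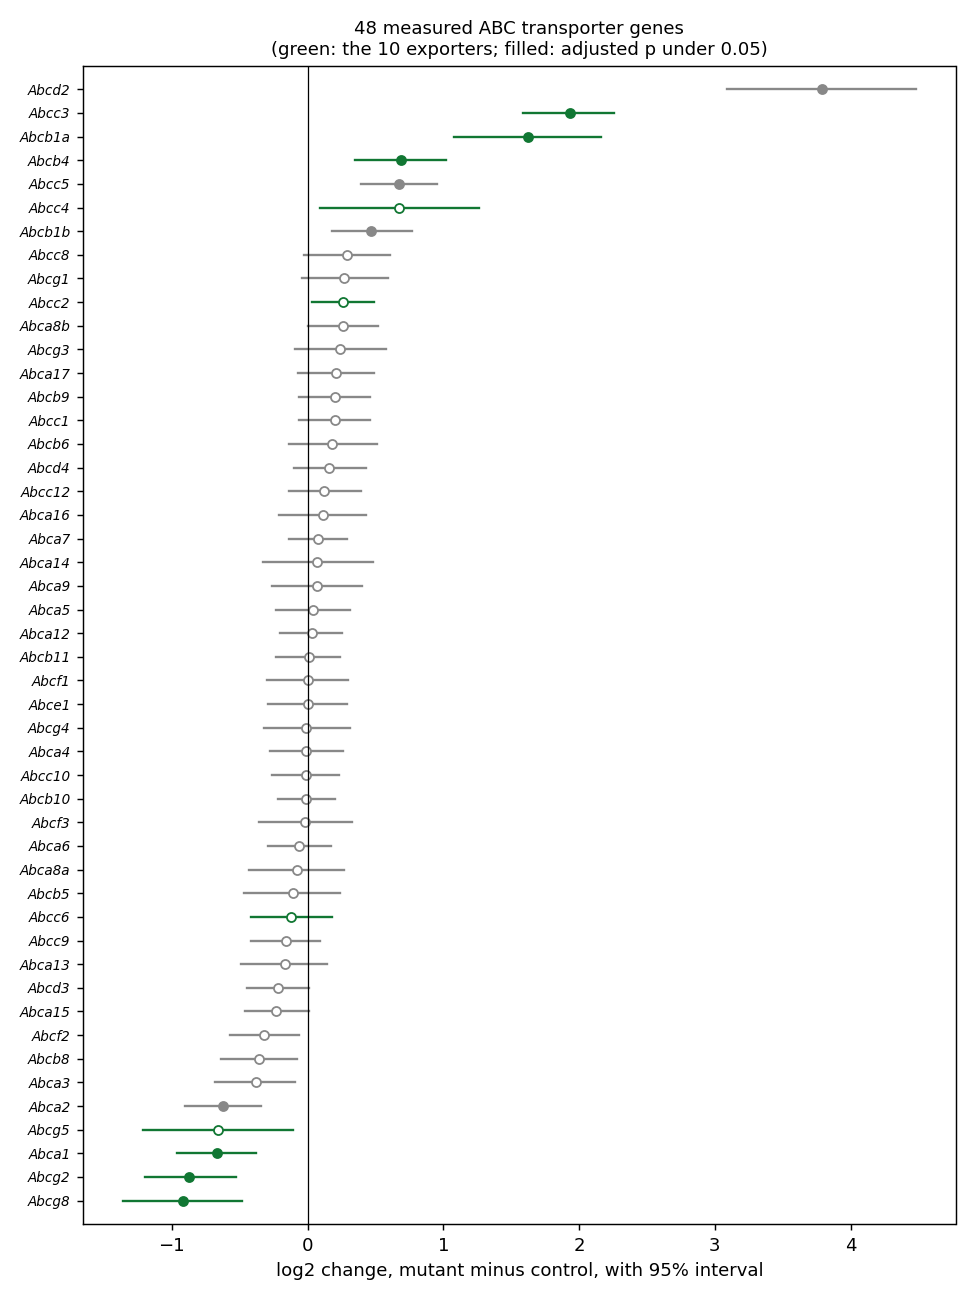
Log2 change (mutant minus control, x axis) with its 95% interval for the 48 measured ABC genes, in order of size, with the 10 exporters in green, other genes in grey, and filled points for an adjusted p under 0.05. *Abcc3* and *Abcb1a* lie near the upper end below *Abcd2*, and *Abcg8*, *Abcg2*, *Abca1* and *Abcg5* form the lower end.

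Transporters that work beside these exporters changed in both directions as well. Of 10 other hepatic exporters, 4 rose and 0 fell: *Slc47a1* (Mate1), the canalicular exporter of organic cations, by 1.02 (SE 0.11, limma adjusted p = 6.82e-07), *Slc51b*, the beta subunit of the basolateral bile acid exporter, by 0.94 (adjusted p = 0.00536), *Abcc5* and *Abcb1b*. *Slc51b* was detected on 2 of 9 control and 9 of 10 mutant arrays, so the size of its rise is uncertain, and its partner *Slc51a*, detected on 1 control and 1 mutant array, had a log2 change of -0.07 (adjusted p = 0.802). Of 8 measured carriers for uptake of organic ions, 2 rose and 3 fell. *Slc22a7* (Oat2) fell by 2.75 (adjusted p = 5.01e-09) and *Slco1a1* by 2.23 (adjusted p = 6.82e-04), while *Slco1a4* rose by 1.74 (adjusted p = 6.79e-04) and *Slc22a5* by 1.00 (adjusted p = 8.83e-04). *Slc22a7* had a mutant mean of 4.53 and was detected on 8 of 10 mutant arrays, so the size of its fall is uncertain. *Slc10a1*, the main bile acid importer, had a log2 change of -0.04 (adjusted p = 0.900). Of 13 genes for the scaffolds and trafficking that hold exporters at the membrane, such as *Pdzk1*, *Ezr* and *Rdx*, 0 passed the test in limma, and 4 had an unadjusted p under 0.05.

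Regulators known to act on these genes were read from a list of 15 measured genes, of which 5 rose and 2 fell. *Nr1i3* (CAR), a receptor that induces *Abcc3* and drug-metabolizing genes, rose by 1.56 (SE 0.21, limma adjusted p = 1.15e-05), and its signal in all 10 mutants exceeded the highest control. *Pparg* rose by 3.25 (adjusted p = 2.81e-09). Smaller rises were those of *Ahr* (0.66, adjusted p = 0.0157), *Nr1i2* (PXR, 0.55, adjusted p = 0.0211) and *Keap1* (0.48, adjusted p = 0.0228). *Nr1h3* (LXR alpha), the sterol sensor that induces *Abca1*, *Abcg5* and *Abcg8*, fell by 0.51 (SE 0.13, adjusted p = 0.0136), and *Nr0b2* (SHP), a repressor of bile acid synthesis, fell by 1.50 (adjusted p = 0.00234). *Nfe2l2*, the gene of NRF2, had a log2 change of 0.04 (adjusted p = 0.907), and *Ppara* one of 0.11 (adjusted p = 0.747). These are RNA levels, and the activity of the regulators was not measured.

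Other targets of the same regulators were counted without the exporters, beside 4.73% of all genes that rose and 5.33% that fell. Of 15 measured NRF2 targets, 11 rose and 1 fell (median log2 change 0.90), among them *Gsta2*, a glutathione transferase (3.38), *Nqo1*, a quinone reductase (1.99), and *Ugdh*, which makes UDP-glucuronic acid for conjugation (1.48). Of 13 PPAR alpha targets, 9 rose and 0 fell (median 1.32), with *Abcd2* and *Cyp4a10* (2.80) first by adjusted p. Of 9 targets of CAR and PXR, 5 rose and 0 fell (median 0.53), with *Cyp3a11* (2.90) first. Of 9 targets of LXR, 2 rose (*Pltp* and *Cyp7a1*, the rate-limiting enzyme of bile acid synthesis, with a log2 change of 2.77) and *Nr1h3* itself fell (median 0.27). Among the LXR targets without a call, *Apoe* and *Scd1* lay at the upper end of the scale, where a change can be hidden or understated. *Scd1* was lower in all 10 mutants than in every control, as were 0.549% of all genes (log2 change -0.17, limma adjusted p = 0.255). The exporters listed in these sets were *Abcc3*, *Abcc2* and *Abcc4* for NRF2 and for CAR and PXR, *Abcb4* for PPAR alpha, and *Abca1*, *Abcg5* and *Abcg8* for LXR.

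**Figure D4:**
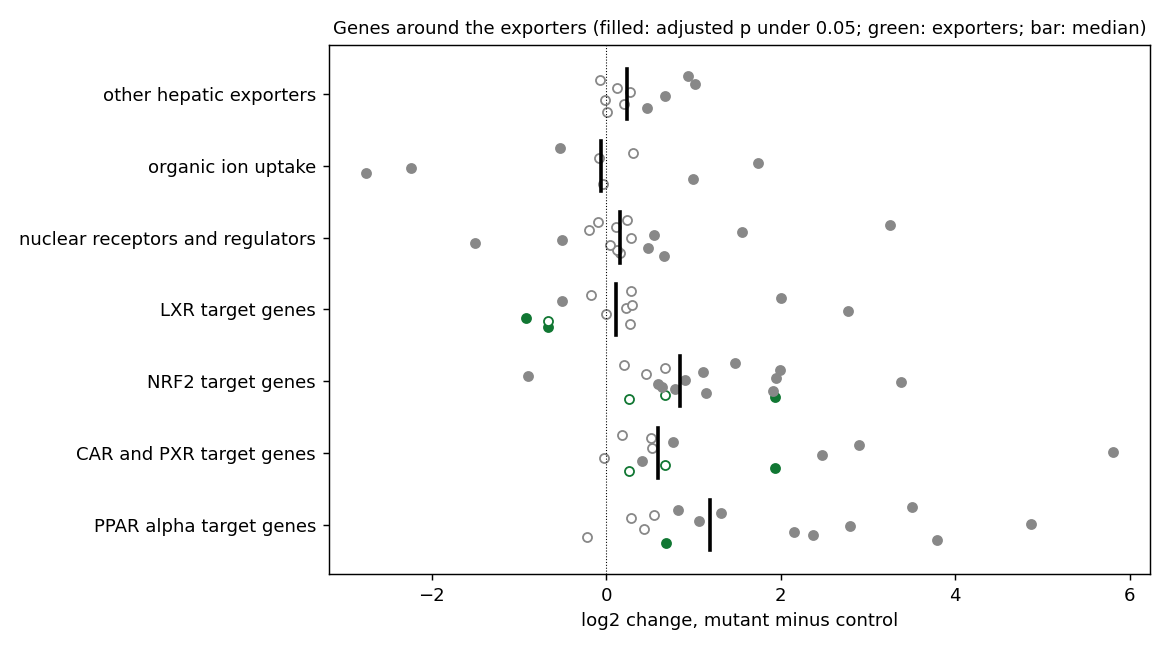
Log2 change (mutant minus control, x axis) of each measured gene in 7 lists (rows), with filled points for an adjusted p under 0.05, exporters in green and the median of each list as a bar. The medians lie between 0.60 and 1.20 for the targets of NRF2, of CAR and PXR and of PPAR alpha with the exporters included, while the 3 exporters among the LXR targets lie at the lower end of their row.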

How the data were processed

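The authors amplified liver RNA, hybridized it to Mouse Clariom S arrays and summarized the scans by SST-RMA in the array maker's software, and the log2 signals they deposited, normalized between arrays, were used as given. The p-value of detection above background that the authors deposited for each probe set and array was read at a threshold of 0.05. A second deposited table of log2 values differed by at most 0.0005.

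Of 22206 probe sets, 19572 name 1 gene in the platform annotation and 2634 are unnamed here, and for 55 genes the brightest probe set was kept, which leaves 19505 genes. No filter was applied. Groups were compared by limma 3.58.1 under R 4.3.3, using lmFit, eBayes and Benjamini-Hochberg adjustment over all genes, beside exact permutation tests. Tested on simulated data of 19505 genes, with 50 genes for each change, the procedure recovered 19 at 0.5, 46 at 1 and 50 at 2 on the log2 scale. There were 8 false calls among the genes left unchanged. Fewer genes were changed in the simulation than were called in these data, and its noise was independent between genes. These recoveries therefore need not hold here.

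The exporters and lists were chosen with earlier results of these data known. Genes are named if they are exporters, other ABC genes that passed, up to 4 per list by adjusted p, or the 3 most correlated with a called exporter; the remaining genes were named for their role after their values were seen. Marker sums are log2 of summed linear signals. Other steps used Python 3.11.15 with scipy 1.17.1, pandas 2.3.3, matplotlib 3.10.9 and numpy 2.4.6. Start-site windows came from RefSeq for GRCm38.p6; the array files name no build. The number of arrays limits the precision.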

Additional observations from a re-analysis of the deposited data

Results flagged for a closer look

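In the mutants, *Abcc4* had a log2 signal of 8.40 in replicate 3, with the next highest of the 10 mutants at 7.02. The gap was 0.47 of the whole range, above Dixon's 95% critical value of 0.466 for 10 samples. *Abcc6* had a log2 signal of 7.51 in mutant replicate 1, with the next lowest at 8.26, a gap of 0.50 of the range. These were the 2 outlying values in 32 groups of samples tested (16 genes in 2 genotypes), and by chance about 1 in 20 groups is expected to hold one.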

How the results depend on the processing

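All 10 exporters kept their direction and their side of the threshold under all of these alternatives: limma with trend and robust settings, the methods' t-test and Wilcoxon test adjusted over all genes, the second table, median centring, quantile normalization, 2 filters on dim genes, array weights, a replicate block, the mean over probe sets and leaving out each array in turn. In each of them 3 exporters rose and 3 fell. Before adjustment, the methods' t-test passed 8 and the Wilcoxon test 9 of the 10, and after it both passed 6. Over the alternatives the highest adjusted p of a called exporter was 0.0445, for *Abcb4* with the replicate block (0.00171 at the lowest). With the block on the replicate number the log2 changes were 1.92 for *Abcc3*, 1.48 for *Abcb1a*, -0.84 for *Abcg2* and -0.86 for *Abcg8*. Arrays of the same number did not deviate together (correlation of deviations from -0.09 to 0.06 over 9 pairs). This does not settle whether the numbers pair the animals, and the block leaves out mutant replicate 10. *Abcc6* changed sign, to 0.01 (adjusted p = 0.970 from limma, 0.519 to 0.970 over its alternatives), without replicate 1 of both groups, chosen after seeing the data, and the cause was not tested. Dim genes such as *Abcb1b* lie near background, which limits the size of change that can be read.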

Other observations

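*Abcb1a*, *Abcb1b* and *Abcb4* are consecutive protein-coding genes in RefSeq for GRCm38.p6, and their neighbours were read after the values of the exporters had been seen. On the side of *Abcb4*, *Crot*, a peroxisomal carnitine acyltransferase, had a mean log2 signal of 17.06 (SD 0.30) in 9 controls against 17.52 (SD 0.32) in 10 mutants and rose by 0.46 (standard error 0.14, adjusted p = 0.0362 from limma). The next gene, *Tmem243*, rose by 0.42 (standard error 0.11, adjusted p = 0.0123 from limma). On the side of *Abcb1a*, *Rundc3b*, which overlaps it in the annotation, had a log2 change of 0.30 (adjusted p = 0.241 from limma), and *Slc25a40* one of -0.07 (adjusted p = 0.822). Of these 4 neighbours, 2 passed the test, beside 10.1% of all genes, which is a description of 4 genes only.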
